A study of Mus musculus with 18 samples.

Results

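The proteasome is the barrel-shaped protease that degrades proteins tagged with ubiquitin, and 50 of its genes could be compared here between DBA/2J and C57BL/6J, 2 inbred strains of mice, in brain, kidney and liver. The members were the genes whose symbol in the platform's annotation begins with Psma, Psmb, Psmc, Psmd, Psme, Psmf or Psmg and a number. They numbered 50 of 15095 named genes, on 51 of 21765 spots used, since Psmb8 had 2 spots and every other member had 1. No filter on low values was applied, and all 50 were tested. By role they comprised 8 alpha subunits of the core particle, 8 beta subunits outside the immune set (Psmb1 to Psmb7 and Psmb11) and 3 immune beta subunits. For the regulatory particle there were 6 ATPases, 11 other subunits and 3 chaperones of its assembly. The rest were 4 chaperones of core assembly, 3 activators, 1 inhibitor, and 3 genes that carry such a symbol without being established subunits (Psme2b, Psme3ip1 and Psmc3ip).

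Each of the 18 arrays was a single hybridisation of total RNA on a glass array with 2 colours, 6 arrays for each of brain, kidney and liver. On every array a pool from DBA/2J mice was set against a pool from C57BL/6J mice, with 10 mice in each brain and kidney pool and 9 in each liver pool. The labels name no treatment, and no age or sex of the mice is given in those labels. The 6 arrays of a tissue shared the same RNA pools and no dyes were swapped. The p-values therefore measure the spread between hybridisations rather than between mice, and an effect of the dye cannot be told apart from an effect of the strain.

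Values are log2 ratios of DBA/2J over C57BL/6J after normalisation within each array, so a log2 ratio above 0 means more signal from the DBA/2J pool. This direction is likely rather than stated, since the labels name the dyes without tying each to a strain. Glo1, which is duplicated in DBA/2J, had mean log2 ratios of 0.64 ± 0.13, 0.82 ± 0.34 and 0.90 ± 0.15 (SD, n = 6 arrays each; brain, kidney, liver). Hc, the complement gene that is inactive in DBA/2J, had a log2 ratio of -1.08 ± 0.48 in liver. By spot intensity, 6 of 6 brain markers and 7 of 7 liver markers were brightest in their own tissue, against 4 of 6 kidney markers (not Aqp2 or Slc22a6). In whole organs, fewer cells of a type and less RNA per cell cannot be told apart.

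As background, the core particle stacks rings of alpha subunits, which form the gate, around rings of beta subunits, which hold the peptidase sites. The regulatory particle recognises ubiquitin chains, unfolds the substrate with its ring of ATPases and feeds it through the gate. In cells exposed to interferon-gamma, and constantly in lymphoid cells, the catalytic subunits Psmb5, Psmb6 and Psmb7 are replaced by Psmb8, Psmb9 and Psmb10 in newly built cores, which favours peptides that fit major histocompatibility complex class I molecules. In brain, kidney and liver parenchyma the constitutive form predominates.

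The strain ratios of the proteasome genes lay close to equality, and most members passed the test in no tissue or in 1. The largest mean difference was 1.48-fold, for Psmd12 in brain, and no member reached 1.5-fold. In brain 7 of 50 members were higher in DBA/2J and 1 was lower at a Benjamini-Hochberg adjusted p under 0.05 in limma. In kidney 10 were higher and 3 lower, and in liver 7 were lower and 0 higher. Without liver array 2, 4 were higher and 8 lower in liver, and with all 18 arrays in 1 fit 1 was higher and 8 lower. Of the 50 members, 23 passed in at least 1 tissue, 5 in 2 tissues (Psma1, Psmb4, Psmd12, Psme1 and Psme4) and 0 in all 3. Such overlaps were not counted over all features, so these counts are not read as a result about the members. A pass in 1 tissue alone is also not a tested difference between tissues.

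The share of members that passed was below that of all 20218 features in kidney and liver and close to it in brain. In brain 16% of members passed against 13.4% of all features, with 14% of members higher against 7.3% of all features, and 2% lower against 6.14%. In kidney 26% of members passed against 37.9% of all features, of which 19% were higher and 18.9% lower. In liver 14% of members passed against 22.8% of all features, of which 10.8% were higher and 12% lower. At an unadjusted p under 0.05 in limma, 3 members were higher and 11 lower in liver. Values of the same sign on all 6 arrays were found for 10 members in brain, 7 in kidney and 7 in liver, against 18.1%, 33.3% and 24.6% of all features. The shares of all features that passed higher or lower in each tissue also apply beside the counts of classes and lists below.

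With the normalisation used here, the members also spread less than all features, with the smallest gap in brain. The SD over members was 0.17 (brain), 0.19 (kidney) and 0.17 (liver), against 0.21, 0.28 and 0.23 over all features. The members were not compared with equally bright features. Within 0.2 of a log2 ratio of 0 were 39 members in brain, 38 in kidney and 41 in liver, which is 78%, 76% and 82% of them. Of all features 73.7%, 61.8% and 70.4% lay in that range. The members had a median log2 ratio of 0.09 (brain), 0.01 (kidney) and -0.04 (liver), beside 0.00 for all features in each tissue. On single arrays the members' median ranged from 0.00 to 0.17 in brain, from -0.01 to 0.10 in kidney and from -0.13 to 0.00 in liver. In brain 42 of the 50 means lay above 0 (84%), in kidney 29 (58%) and in liver 21 (42%). Of all features, 51.1%, 50.9% and 50.6% had means above 0 in brain, kidney and liver.

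**Figure D1:**
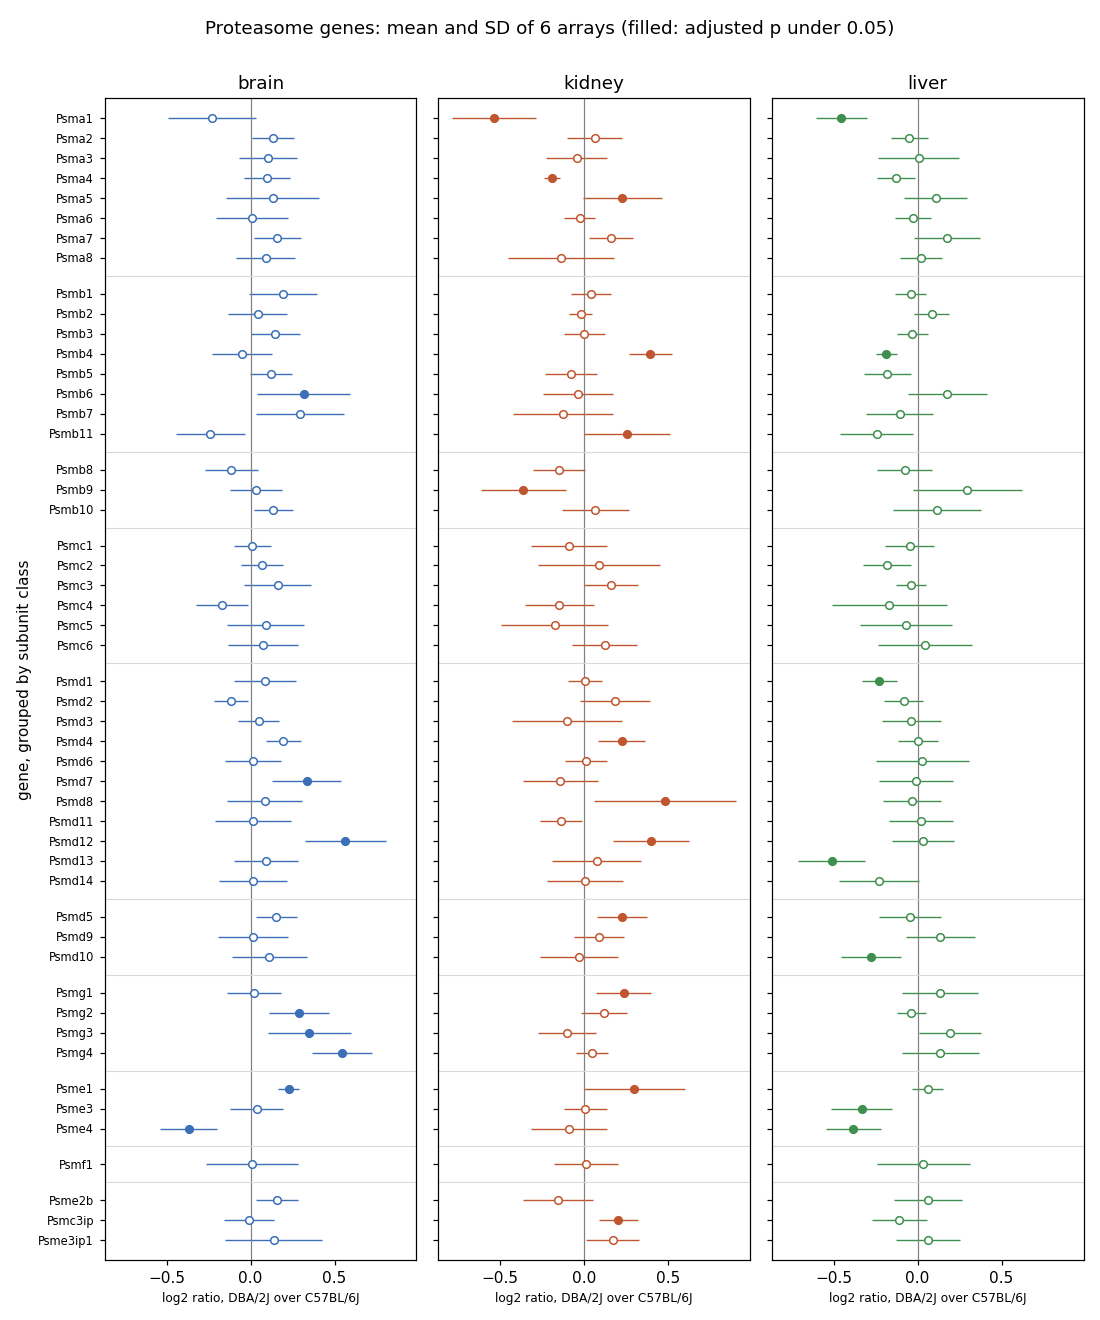
Mean log2 ratio of DBA/2J over C57BL/6J for each of the 50 proteasome genes (rows, grouped by class, horizontal lines between classes) in brain, kidney and liver. Points are means of 6 arrays with bars of 1 SD, and filled points passed an adjusted p of 0.05. Most rows sit within 0.2 of 0, with Psmd12 and Psmg4 farthest to the right in brain and Psma1 and Psmd13 farthest to the left in kidney and liver.

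The kidney result rests on the normalisation more than the others do. Proteasome genes gave bright spots, with median intensity percentiles of 67.7 (brain), 82.5 (kidney) and 75 (liver), and on kidney arrays the ratios as deposited rose with spot intensity (r from 0.617 to 0.717 across spots). On brain arrays that r ranged from 0.0043 to 0.597, and on liver arrays from -0.146 to 0.309. With array medians set to 0 and no loess, 41 members passed in kidney, 36 higher and 5 lower, when 64.9% of all features passed (32% higher and 32.9% lower), and the members' median was 0.44. With 1 loess curve per array in place of 1 for each print-tip, 5 members passed in kidney, 1 higher and 4 lower, against 31% of all features (15.2% higher and 15.8% lower).

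**Figure D2:**
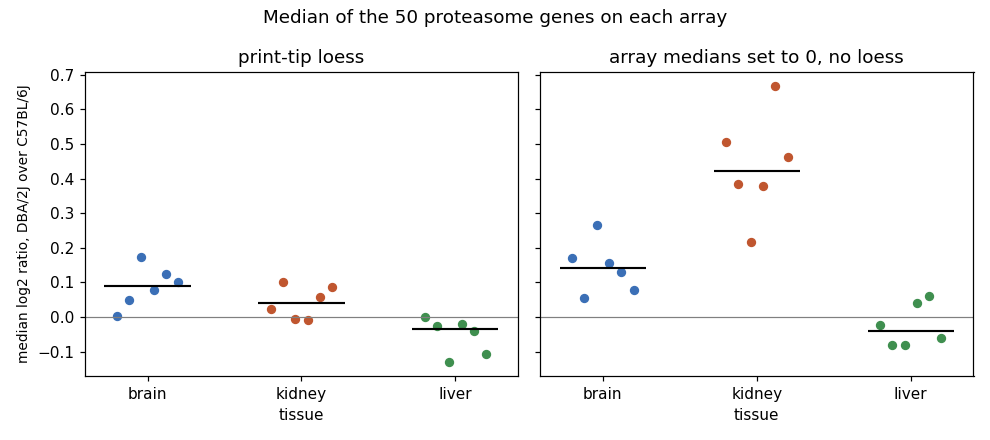
Median log2 ratio of DBA/2J over C57BL/6J of the 50 proteasome genes on each of 6 arrays per tissue (points) and the median of those 6 values (line), after print-tip loess (left) and after setting only the array median to 0 (right). The kidney points move from between -0.01 and 0.10 to between 0.22 and 0.67, and the brain and liver points move less.

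Among the alpha subunits of the core, 1 of 8 was higher and 2 were lower in kidney, 1 was lower in liver, and 0 passed in brain in limma, where 1 was higher and 1 lower at an unadjusted p under 0.05. Psma1, a subunit of the gated outer ring, was lower in DBA/2J in kidney and liver. Its liver log2 ratios on arrays 1 to 6 were -0.30, -0.71, -0.36, -0.44, -0.37 and -0.54. All 6 lay below 0, with a mean of -0.45 ± 0.15 (SD, n = 6), or 1.37-fold lower in DBA/2J (limma, adjusted p = 0.00118). This call held under every alternative setting tried and with any single array left out.

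In kidney the log2 ratios of Psma1 were -0.63, -0.40, -0.49, -0.99, -0.40 and -0.30, again all below 0, with a mean of -0.54 ± 0.25 (adjusted p = 0.000348). That mean was -0.02 without loess and -0.19 with unrestored intensities, and neither passed. In brain its log2 ratios were -0.29, -0.13, -0.10, -0.72, 0.02 and -0.15, with a mean of -0.23 ± 0.26 that did not pass (adjusted p = 0.119). The differences of the kidney and liver values of Psma1 from the brain value did not pass (kidney minus brain -0.31, adjusted p = 0.0798, and liver minus brain -0.22, adjusted p = 0.317).

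The other called alpha subunits had smaller ratios. Psma4 had kidney log2 ratios of -0.14, -0.18, -0.16, -0.27, -0.23 and -0.16, with a mean of -0.19 ± 0.05 (adjusted p = 0.024). Its mean was 0.44 without loess, which turned the direction, and the call ended without kidney array 4 (-0.17) or 5 (-0.18). Psma5 had a kidney mean of 0.23 ± 0.23 (adjusted p = 0.0436), and the call ended without array 1, 2, 4, 5 or 6 (means from 0.16 to 0.25). Psma2, Psma3, Psma6, Psma7 and the testis-specific Psma8 passed in no tissue, and their means ranged from -0.14 to 0.18.

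Of the 8 beta subunits outside the immune set, 1 was higher in brain, 2 were higher in kidney (Psmb4 and Psmb11) and 1 was lower in liver. Psmb4, a beta subunit without a peptidase site, was the only member called in opposite directions. Its kidney log2 ratios were 0.24, 0.41, 0.25, 0.55, 0.51 and 0.39, all above 0, with a mean of 0.39 ± 0.13 (adjusted p = 0.000579). Its liver log2 ratios were -0.24, -0.25, -0.22, -0.12, -0.17 and -0.10, all below 0, with a mean of -0.19 ± 0.06 (adjusted p = 0.0459).

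Both Psmb4 calls depended on the processing or on single arrays. In kidney its spot was dim, at intensity percentile 8.19, and its kidney mean was -0.49 without loess and -0.08 with unrestored intensities. The liver call ended without any 1 of the 6 arrays, at means from -0.20 to -0.17. In brain Psmb4 had log2 ratios of 0.21, 0.08, -0.17, 0.00, -0.24 and -0.19, which fell on both sides of 0 (mean -0.05 ± 0.18).

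The catalytic subunits Psmb5, Psmb6 and Psmb7 provide the chymotrypsin-like, caspase-like and trypsin-like activities. Psmb6 had brain log2 ratios of 0.03, 0.46, 0.54, 0.14, 0.68 and 0.05, with a mean of 0.32 ± 0.28 (adjusted p = 0.0469). Every array was above 0, but the call ended without array 2, 3, 4, 5 or 6 (means from 0.24 to 0.37). Psmb7 had a similar brain mean, 0.30 ± 0.26, which did not pass (adjusted p = 0.055), from log2 ratios of -0.01, 0.26, 0.28, 0.07, 0.46 and 0.71. Psmb5 did not pass, at 0.12 ± 0.12 (brain), -0.08 ± 0.15 (kidney) and -0.18 ± 0.14 (liver). Psmb1, Psmb2 and Psmb3, which have no peptidase site, passed in no tissue, with means from -0.04 to 0.19.

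Psmb11, the beta subunit of the thymic cortex, lies next to Psmb5 in the genome and was named on 1 spot. The spot lay at intensity percentiles of 72.1 (brain), 49.7 (kidney) and 55.8 (liver). Whether its signal came from Psmb11 in these tissues was not tested. Its kidney log2 ratios were 0.44, 0.62, 0.30, -0.09, 0.21 and 0.05, with a mean of 0.26 ± 0.26 (adjusted p = 0.033). The call ended without kidney array 1, 2, 3 or 5, at means from 0.18 to 0.26. The kidney mean was 0.06 without loess, 0.08 with 1 loess curve and 0.31 with unrestored intensities, and none of these passed. In brain its log2 ratios were -0.45, -0.27, -0.33, 0.14, -0.34 and -0.19 (mean -0.24 ± 0.21, adjusted p = 0.0756). In liver they were -0.07, -0.14, -0.21, -0.38, -0.04 and -0.61 (mean -0.24 ± 0.22, adjusted p = 0.0504). The signs in brain and liver were thus mostly opposite to those in kidney.

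The immune beta subunits did not move as a set, and 1 of the 3 passed in 1 tissue. Among the other combinations of immune subunit and tissue, 2 passed with 1 loess curve per array and 2 without loess. Psmb9 (LMP2), which takes the place of Psmb6, was lower in DBA/2J in kidney. Its kidney log2 ratios were -0.39, -0.56, -0.42, -0.45, 0.14 and -0.49, so 5 of 6 arrays lay well below 0 and array 5 lay above it. The mean was -0.36 ± 0.25 (SD, n = 6), or 1.29-fold lower (limma, adjusted p = 0.00513). The call held with any single array left out and in every setting that included Psmb9. Psmb9 was not among the 41 members tested above the median intensity.

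In liver Psmb9 pointed the other way without passing, with log2 ratios of 0.06, -0.23, 0.47, 0.62, 0.52 and 0.33 and a mean of 0.30 ± 0.32 (adjusted p = 0.0571). Without liver array 2 the mean was 0.40 (adjusted p = 0.00812), and in the fit of all 18 arrays the same 0.30 passed (adjusted p = 0.0266). In brain its log2 ratios were 0.02, -0.23, 0.25, 0.00, 0.08 and 0.07 (mean 0.03 ± 0.15). The difference between tissues was itself tested: kidney minus liver was -0.66 ± 0.14 (SE, limma contrast, adjusted p = 0.00141). That call held with any array left out and in every setting that included Psmb9.

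Psmb8 (LMP7) and Psmb10 (MECL-1), which replace Psmb5 and Psmb7, did not pass in any tissue. Psmb8 had brain log2 ratios of -0.23, -0.32, -0.02, -0.19, -0.03 and 0.11, kidney log2 ratios of -0.33, -0.06, 0.11, -0.25, -0.15 and -0.22, and liver log2 ratios of 0.02, 0.18, -0.17, -0.10, -0.29 and -0.11. Their means were -0.11 ± 0.16, -0.15 ± 0.16 and -0.08 ± 0.16, all slightly below 0 with arrays on both sides. Tested by itself, 1 of its 2 spots passed in kidney (-0.21 ± 0.18, adjusted p = 0.0385) and the other did not (-0.09 ± 0.27). The Psmb8 mean also passed in kidney without array 3 (-0.20) and without loess (-0.26). Over the settings tried, it ranged from -0.29 to -0.06 in kidney and from -0.26 to -0.08 in liver.

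Psmb10 had brain log2 ratios of 0.12, 0.06, 0.05, 0.11, 0.36 and 0.13, with a mean of 0.14 ± 0.11 (adjusted p = 0.215) although all 6 were above 0. Its kidney log2 ratios were -0.01, -0.06, 0.44, 0.03, 0.12 and -0.12 (mean 0.07 ± 0.20, but 0.53 without loess). Its liver log2 ratios were 0.13, -0.25, -0.07, 0.09, 0.47 and 0.33 (mean 0.12 ± 0.26). The 3 immune subunits therefore had no common sign in any tissue. Beside their constitutive counterparts in kidney, Psmb9 stood at -0.36 with Psmb6 at -0.04, Psmb10 at 0.07 with Psmb7 at -0.13, and Psmb8 at -0.15 with Psmb5 at -0.08.

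**Figure D3:**
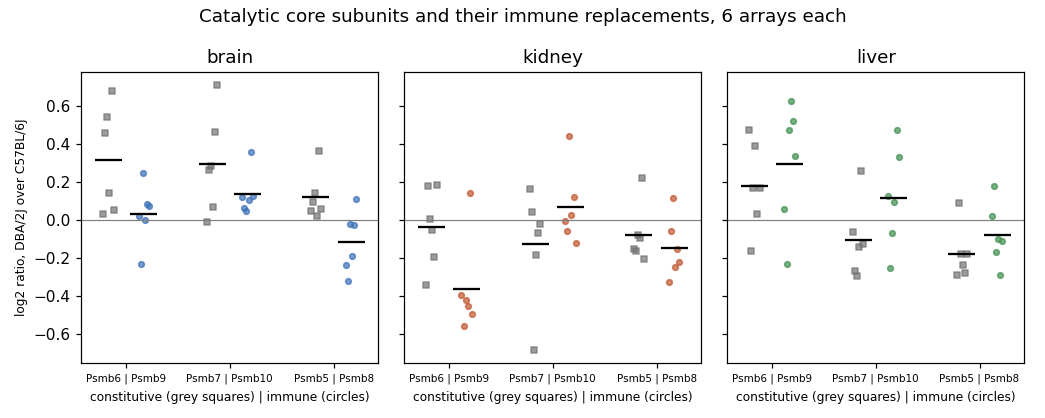
Log2 ratio of DBA/2J over C57BL/6J on each of 6 arrays for the catalytic core subunits (grey squares) and the immune subunits that replace them (coloured circles) in brain, kidney and liver, with the mean as a line. The Psmb9 circles lie below 0 on 5 of 6 kidney arrays and above 0 on 5 of 6 liver arrays. The Psmb8 circles lie below 0 on 5 of 6 arrays in brain and in kidney and on both sides of 0 in liver. The Psmb10 circles lie above 0 on all 6 brain arrays and on both sides of 0 in kidney and liver.

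Psmb9 lies on chromosome 17 in the class II region of the major histocompatibility complex, in a run of 4 neighbouring genes with Tap1, Psmb8 and Tap2. Tap1 and Tap2 form the pump that carries proteasome products to class I molecules. Psmb9 and Tap1 start back to back, with 225 bases between their RefSeq start sites at chr17:34187331-34187555 (GRCm38.p6). The stretch is shown because the 2 genes share it and only Psmb9 passed, written 5′ to 3′ toward Psmb9 on the minus strand, with the GC box (GGGCGG) in capitals:

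Psmb9 to Tap1: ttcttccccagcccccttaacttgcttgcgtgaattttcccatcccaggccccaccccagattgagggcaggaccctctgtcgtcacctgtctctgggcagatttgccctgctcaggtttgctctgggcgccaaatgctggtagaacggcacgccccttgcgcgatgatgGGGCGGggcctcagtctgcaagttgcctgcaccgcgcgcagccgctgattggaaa

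Across that stretch the strain ratios differed in size. Tap1 had means of -0.10, -0.15 and 0.13 in the order brain, kidney and liver, none past the threshold, where Psmb9 had 0.03, -0.36 and 0.30. Tap2, 2 genes further on, was higher in kidney at 0.48 ± 0.13, a call that held with any array left out but became -0.20 without loess. Whether the difference between Psmb9 and Tap1 exceeds the spread was not tested.

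Levels of leukocyte markers and of other interferon-induced genes are given beside Psmb9, since lymphoid cells and interferon raise it. Of 15 leukocyte markers measured, 0 passed in brain in limma (3 higher and 1 lower at an unadjusted p under 0.05), 2 were higher and 4 lower in kidney, and 1 was higher and 2 lower in liver. The B cell gene Cd79a was lower in kidney (-0.43 ± 0.18) and liver (-0.42 ± 0.19), and the T cell gene Cd3e was higher in liver (0.26 ± 0.11). Without loess Cd79a stood at -0.12 in kidney and Cd3e at 0.07 in liver, where neither passed, and Cd79a at -0.50 in liver, where it passed. The B cell gene Ms4a1 was lower in kidney too (-0.36 ± 0.31), and Coro1a was higher there (0.33 ± 0.31, but -0.13 without loess), a call that ended without array 1 or 6. The class II gene H2-Ab1 was higher in kidney (0.17 ± 0.09), a call that ended without array 1, 3, 4, 5 or 6. Another class II gene, H2-Aa, was lower in kidney (-0.20 ± 0.15). The H2-Aa call ended without array 1, 2, 4 or 5, and its mean was 0.49 without loess. Cd74, the class II invariant chain, was lower in kidney (-0.27 ± 0.34, but 0.06 without loess), a call that ended without array 1, 2, 3, 4 or 5. Cd74 was also lower in liver (-0.21 ± 0.14), a call that ended without any 1 of the 6 arrays. The median log2 spot intensity of the 15 markers, over both strains, ran from 7.69 (liver) through 7.92 (kidney) to 8.52 (brain). Of 19 interferon-induced genes measured, 7 were lower and 2 higher in kidney, and 2 were lower and 2 higher in liver. Of all features, 18.9% were lower and 19% higher in kidney, and 12% were lower and 10.8% higher in liver. The part of leukocytes or of interferon in the Psmb9 ratios was not tested.

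The 6 ATPases of the regulatory particle, Psmc1 to Psmc6, which unfold the substrate, gave 0 calls in every tissue in limma. At an unadjusted p under 0.05, 1 was lower in brain, 1 higher in kidney and 1 lower in liver. Their means ran from -0.17 to 0.16 in brain, from -0.18 to 0.16 in kidney and from -0.18 to 0.04 in liver. On kidney array 3 the median of the 6 was -0.44, against -0.0045 to 0.13 on the other kidney arrays. Psmc5, which had the lowest kidney mean, stood at -0.82 on array 3. Psmc4 had the lowest brain mean at -0.17 ± 0.15 and sat at a dim spot, at intensity percentile 7.11. At 6 arrays, 11.9% of changes of 0.3 were recovered in brain in data simulated with known answers, 23.9% in kidney and 25.4% in liver. The simulation changed a far smaller share of features than passed on these arrays. With Benjamini-Hochberg adjustment its recoveries therefore do not give the power of the tests made here.

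Among the 11 other subunits of the regulatory particle, 2 were higher in brain, 3 higher in kidney and 2 lower in liver. Psmd12, a scaffold subunit of the lid, had the highest ratio in brain and was higher in kidney too. Its brain log2 ratios were 0.44, 0.83, 0.32, 0.71, 0.30 and 0.80, all above 0, with a mean of 0.56 ± 0.24 (SD, n = 6), or 1.48-fold higher (limma, adjusted p = 0.00279). Its kidney log2 ratios were 0.35, 0.59, 0.13, 0.70, 0.17 and 0.43, also all above 0 (mean 0.40 ± 0.23, adjusted p = 0.00206).

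In liver Psmd12 was not raised, with log2 ratios of -0.06, 0.11, -0.01, -0.04, 0.36 and -0.16 (mean 0.03 ± 0.18). The liver ratio was below the brain ratio by test (liver minus brain -0.53, adjusted p = 0.00673) and below the kidney ratio (kidney minus liver 0.36, adjusted p = 0.0424). The liver minus brain call ended in 1 of the other settings tried, where differences ran from -0.67 to -0.40, and held with any array left out. The brain call held in every setting and with any array left out. The kidney call became 0.26 with 1 loess curve per array (adjusted p = 0.0689), and the kidney minus liver call ended without kidney array 1, 2, 4 or 6 or liver array 1, 3, 4 or 6 (differences from 0.30 to 0.37 in those 8 fits).

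Proteasome genes are induced together through antioxidant response elements when the enzyme is inhibited, and Psmd12 is one of the members with such a match upstream. It is shown because it had the highest ratio, as the 250 bases before its RefSeq start at chr11:107479278-107479527 (GRCm38.p6), plus strand, 5′ to 3′, with the match to TGACNNNGC on the minus strand in capitals:

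Psmd12 upstream: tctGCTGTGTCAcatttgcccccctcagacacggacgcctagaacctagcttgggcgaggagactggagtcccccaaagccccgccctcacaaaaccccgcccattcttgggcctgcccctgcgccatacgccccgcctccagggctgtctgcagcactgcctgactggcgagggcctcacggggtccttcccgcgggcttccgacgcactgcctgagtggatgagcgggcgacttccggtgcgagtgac

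Upstream sequences of 250 bases were matched for 42 of the 50 members and searched on both strands. TGACNNNGC was found in 5 of 42 (11.9%), beside 11.5% of 27025 genes with RefSeq promoters of that length. The matches in the other 4 are shown with up to 10 bases on each side, the match in capitals, to set them beside Psmd12:

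Psmb5: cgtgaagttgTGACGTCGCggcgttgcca

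Psmb6: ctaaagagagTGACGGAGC

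Psmc6: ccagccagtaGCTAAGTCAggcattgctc

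Psmd9: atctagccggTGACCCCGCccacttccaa

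Of these 5 genes, Psmd12 passed in brain and kidney, Psmb6 passed in brain, and Psmb5, Psmc6 and Psmd9 passed in no tissue. The interferon-stimulated response element (GAAA, any 2 bases, GAAA) was found in 3 of 42 members (7.14%, beside 3.46% of genes), the gamma-activated site TTCNNNGAA in 2 (4.76% beside 8.13%), CCAAT in 16 (38.1% beside 37.5%) and GGGCGG in 22 (52.4% beside 35.4%). The gamma-activated site letters were upstream of Psmb8 and Psmg1. These are matches of letters in a fixed window and describe no binding.

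Psmd13, another lid subunit, was lower in DBA/2J in liver and near 0 elsewhere. Its liver log2 ratios were -0.44, -0.28, -0.86, -0.43, -0.58 and -0.48, all below 0, with a mean of -0.51 ± 0.20 (SD, n = 6), or 1.43-fold lower (limma, adjusted p = 0.00109). In brain its log2 ratios were -0.07, -0.12, 0.16, 0.02, 0.15 and 0.41 (mean 0.09 ± 0.19). In kidney they were 0.08, 0.31, 0.05, 0.10, -0.41 and 0.32 (mean 0.07 ± 0.26). Apart from kidney array 5, the liver arrays lay below all the brain and kidney arrays. The liver ratio differed from both by test (liver minus brain -0.60, adjusted p = 0.00237, and kidney minus liver 0.59, adjusted p = 0.0017).

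The kidney minus liver difference of Psmd13 held in every setting and with any array left out. The liver minus brain difference was again -0.60 with unrestored intensities but did not pass there (adjusted p = 0.119). Psmd13 lies on chromosome 7 between Sirt3 and Cox8b.

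**Figure D4:**
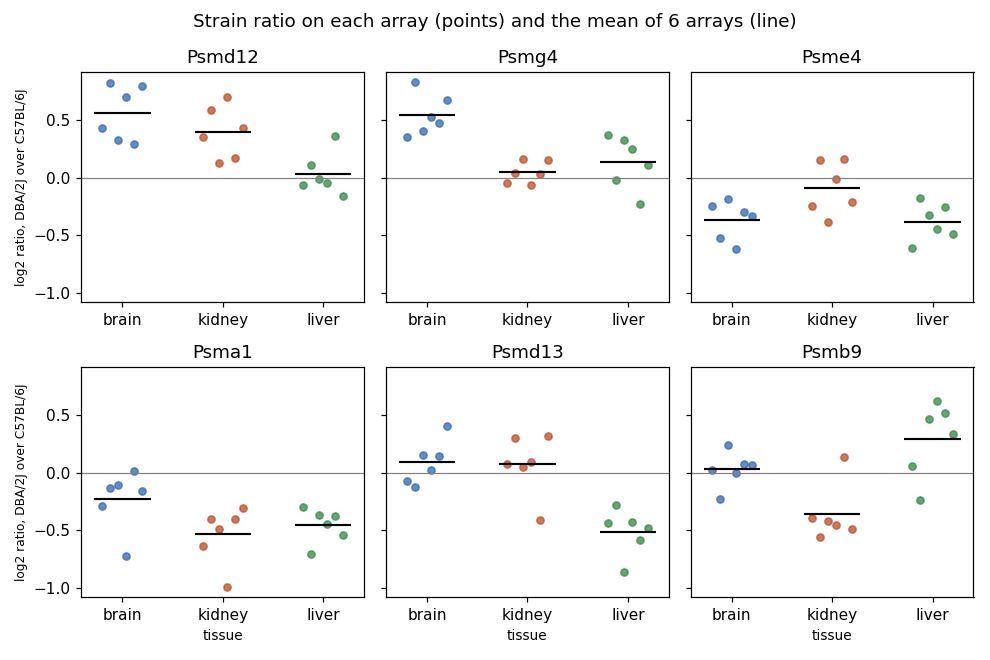
Log2 ratio of DBA/2J over C57BL/6J on each of 6 arrays per tissue (points) and their mean (line) for 6 proteasome genes, Psmd12, Psmg4, Psme4, Psma1, Psmd13 and Psmb9. All Psmd12 and Psmg4 points in brain lie above 0, all Psma1, Psmd13 and Psme4 points in liver lie below 0, and Psmb9 points lie mostly below 0 in kidney and above 0 in liver.

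The remaining calls among these subunits were less stable. Psmd7, the partner of the deubiquitinase Psmd14, had brain log2 ratios of -0.06, 0.46, 0.35, 0.40, 0.53 and 0.33, with a mean of 0.34 ± 0.20 (adjusted p = 0.0217), and the call ended without array 2, 4, 5 or 6 (means from 0.30 to 0.34). Psmd8, a late-joining lid subunit, had kidney log2 ratios of 0.74, 0.61, -0.32, 0.47, 0.53 and 0.87, with a mean of 0.48 ± 0.42 (adjusted p = 0.00667). Its array 3 stood alone below 0. The Psmd8 mean with 1 loess curve was 0.42 and did not pass.

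Psmd4, a ubiquitin receptor, had a kidney mean of 0.22 ± 0.14 (adjusted p = 0.0202), and the call ended without array 1 (0.20) or 6 (0.21). Psmd1, the scaffold of the base, had liver log2 ratios of -0.31, -0.25, -0.28, -0.29, -0.02 and -0.23, with a mean of -0.23 ± 0.10 (adjusted p = 0.0251), and the call ended without array 1, 3, 4 or 6 (means from -0.23 to -0.21). Psmd2, Psmd3, Psmd6, Psmd11 and Psmd14, the deubiquitinase that strips ubiquitin chains, passed in no tissue. Psmd14 had its lowest mean in liver, at -0.23 ± 0.24.

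The chaperones of core assembly held 3 of the 8 brain calls, with 3 of 4 members higher in brain and 1 higher in kidney. Of all features, 7.3% were higher in brain and 19% in kidney. None of these chaperones passed in liver in limma, where 1 was higher at an unadjusted p under 0.05. Psmg4, which acts in a pair with Psmg3 during formation of the alpha ring, had brain log2 ratios of 0.35, 0.83, 0.41, 0.53, 0.47 and 0.68. All 6 lay above 0, with a mean of 0.55 ± 0.18 (SD, n = 6), or 1.46-fold higher (limma, adjusted p = 0.00167), and the call held in every setting and with any array left out. In kidney its log2 ratios were -0.05, 0.05, 0.16, -0.06, 0.03 and 0.16 (mean 0.05 ± 0.10), and in liver 0.37, -0.02, 0.33, 0.25, -0.23 and 0.11 (mean 0.14 ± 0.23). The brain arrays did not overlap with the kidney arrays, and the difference passed (kidney minus brain -0.50, adjusted p = 0.00219). Without loess that difference was -0.09 and did not pass.

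Psmg3 had brain log2 ratios of 0.13, 0.65, 0.20, 0.12, 0.34 and 0.65, all above 0, with a mean of 0.35 ± 0.25 (adjusted p = 0.0261). The call ended without brain array 2 (0.29), 5 (0.35) or 6 (0.29). Psmg2, which acts in a pair with Psmg1, had brain log2 ratios of 0.30, 0.24, 0.28, 0.48, -0.01 and 0.44, with a mean of 0.29 ± 0.18 (adjusted p = 0.0314). Its spot was dim, at intensity percentile 5.44, the mean was -0.01 without loess, and the call ended without array 2, 3, 4 or 6 (means from 0.25 to 0.30). Psmg1 was higher in kidney at 0.24 ± 0.16 (adjusted p = 0.0196), a call that ended without array 1 (0.18), and stood at 0.02 ± 0.16 in brain.

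Of the chaperones of regulatory particle assembly, Psmd5 was higher in kidney at 0.22 ± 0.15 (adjusted p = 0.0217), a call that ended without array 1 (0.18) or 6 (0.20). Psmd10 (gankyrin), also known as an oncoprotein in liver, was lower in DBA/2J in liver. Its liver log2 ratios were -0.18, -0.43, -0.25, 0.02, -0.44 and -0.40, with a mean of -0.28 ± 0.18 (adjusted p = 0.0212), and the call ended without array 3 (-0.28) or 6 (-0.25), without loess (-0.13) and with 1 loess curve (-0.18). Psmd9 passed in no tissue, with means from 0.01 to 0.13.

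The activators, which cap the core in place of the regulatory particle, split between tissues and directions. Psme4 (PA200), a nuclear activator linked to histone degradation, was lower in DBA/2J in brain and liver. Its brain log2 ratios were -0.24, -0.52, -0.18, -0.62, -0.30 and -0.33 (mean -0.37 ± 0.17, adjusted p = 0.011). Its liver log2 ratios were -0.61, -0.17, -0.32, -0.45, -0.25 and -0.49 (mean -0.38 ± 0.16, adjusted p = 0.00362). All 12 values lay below 0, and both calls held in every setting and with any array left out. The kidney mean of Psme4 was -0.09 ± 0.23 and its differences from the brain and liver means did not pass.

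Psme3 (PA28-gamma), the other nuclear activator, had liver log2 ratios of -0.53, -0.18, -0.46, -0.39, -0.38 and -0.05, all below 0, with a mean of -0.33 ± 0.18 (adjusted p = 0.00923). With 1 loess curve per array its mean was -0.19 and did not pass. Its brain and kidney means were 0.04 ± 0.16 and 0.01 ± 0.13, and the liver ratio was lower than each by test (liver minus brain -0.37, adjusted p = 0.0238, and kidney minus liver 0.34, adjusted p = 0.0226). The difference from brain ended without brain array 3 or 6 or liver array 1, 3 or 4 (-0.36 to -0.32), and that from kidney without kidney array 1 or liver array 1 or 3 (0.29 to 0.31).

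Psme1 (PA28-alpha), an interferon-inducible cytoplasmic activator, was higher in brain and kidney. Its brain log2 ratios were 0.27, 0.20, 0.23, 0.23, 0.12 and 0.31, close together and all above 0 (mean 0.23 ± 0.06, adjusted p = 0.0404). That call ended without any 1 of the 6 arrays, at means from 0.21 to 0.25, and in each change of the normalisation (0.04 without loess, 0.08 with 1 loess curve and 0.20 with unrestored intensities). Its kidney log2 ratios were 0.65, 0.22, -0.17, 0.11, 0.48 and 0.49 (mean 0.30 ± 0.30, adjusted p = 0.0245). The kidney mean was -0.07 without loess, and the call ended without array 1 (0.23), 5 (0.26) or 6 (0.26). Psmf1, which inhibits the core in vitro, stood at 0.01, 0.01 and 0.04 in brain, kidney and liver.

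Of the 3 further symbols, 1 passed in 1 tissue. Psmc3ip, a recombination factor that binds Psmc3, had kidney log2 ratios of 0.19, 0.20, 0.04, 0.25, 0.39 and 0.15 (mean 0.20 ± 0.12, adjusted p = 0.0261), and the call ended without array 1, 2, 4 or 5 (means from 0.17 to 0.21) and with 1 loess curve (0.08). Psme2b, a near-identical copy of Psme2 whose signal could come from either gene, stood at 0.16 ± 0.13 (brain), -0.15 ± 0.21 (kidney) and 0.06 ± 0.20 (liver). Psme3ip1, which binds Psme3, had means of 0.14, 0.17 and 0.06.

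To ask whether the strain ratio of a proteasome gene depended on the tissue, the tissue means were contrasted in a limma fit of all 18 arrays. Kidney minus brain passed for 10 of 50 members (20%, against 21.1% of all features), 3 higher and 7 lower, where 10% of all features were higher and 11.1% lower. Liver minus brain passed for 7 (14%, against 7.56%), 0 higher and 7 lower (0 and 13 at an unadjusted p under 0.05 in limma), where 3.22% of all features were higher and 4.34% lower. Kidney minus liver passed for 8 (16%, against 16.3%), 7 higher and 1 lower, where 9.33% of all features were higher and 6.93% lower. The contrasts share arrays, so their counts are not independent, and in all 18 members passed at least 1 of them. With the replicate number as a block, 4 members passed for liver minus brain, and the counts of the other contrasts were 10 and 8 as before.

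The members lower in liver than in brain were Psmd13, Psmd12, Psmg4, Psmd10, Psme3, Psmg2 and Psmd1. The largest difference was that of Psmd13, and the smallest was that of Psmd1 at -0.32 (adjusted p = 0.0381), between a liver mean of -0.23 and a brain mean of 0.09. The Psmd1 call ended without brain array 4, 5 or 6 or liver array 1, 2, 3, 4 or 6 (-0.32 to -0.26). Psmd10 differed by -0.39 (adjusted p = 0.0463) from brain log2 ratios of -0.01, -0.13, 0.50, 0.22, 0.08 and 0.00, and its call ended without brain array 3, 4, 5 or 6 or liver array 1, 2, 3, 5 or 6 (-0.41 to -0.31). Psmg4 differed by -0.41 (adjusted p = 0.0177), a call that ended without liver array 5 (-0.34), and Psmg2 by -0.33 (adjusted p = 0.0341), a call that ended without brain array 3, 4 or 6 or liver array 3, 4, 5 or 6 (-0.33 to -0.29). The Psmg2 liver log2 ratios were 0.05, 0.08, -0.11, -0.09, -0.05 and -0.12. Psmd13 and Psmd12 were the 2 members that kept this call both without loess and with 1 loess curve per array.

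Between kidney and brain, the members with lower ratios in kidney were Psmg4, Psmd7, Psmg3, Psmb7, Psmb9, Psme2b and Psma4. Psmd7 differed by -0.48 (adjusted p = 0.00721), from kidney log2 ratios of 0.11, -0.15, -0.40, -0.11, -0.39 and 0.10, and Psmg3 by -0.45 (adjusted p = 0.00832). Without loess these differences were -0.08 for Psmd7 and -0.07 for Psmg3, and neither passed. The Psmd7 difference was -0.41 with 1 loess curve (adjusted p = 0.0515) and 0.02 with unrestored intensities, which turned its direction. Psmb7 differed by -0.42 (adjusted p = 0.0295), with kidney log2 ratios of 0.16, 0.04, -0.68, -0.18, -0.07 and -0.02, a call that ended without kidney array 3 (-0.31) or 4 (-0.41) or brain array 5 (-0.39) or 6 (-0.34) and turned to 0.21 without loess. Most brain values of these genes were positive and most kidney values negative.

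The Psmb9 difference of -0.39 (adjusted p = 0.0402) was -0.26 without loess, where it did not pass, and ended without any 1 of kidney arrays 1, 2, 3, 4 or 6 or brain arrays 3, 4, 5 or 6, at values from -0.40 to -0.35. Psme2b differed by -0.31 (adjusted p = 0.0454), from brain log2 ratios of -0.04, 0.31, 0.07, 0.20, 0.25 and 0.15 and kidney log2 ratios of -0.09, -0.17, -0.53, 0.09, -0.15 and -0.07, and its call ended without brain array 2, 4, 5 or 6 or kidney array 1, 2, 3, 5 or 6 (-0.33 to -0.23). It was -0.08 both without loess and with unrestored intensities. Psma4 differed by -0.29 (adjusted p = 0.0199), with brain log2 ratios of -0.10, 0.03, 0.21, 0.27, 0.01 and 0.15, and turned to 0.38 without loess. The Psma4 difference ended without brain array 4 (-0.25).

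Psmb11, Psmb4 and Psmd2 had higher ratios in kidney than in brain. Psmb11 differed by 0.50 (adjusted p = 0.00709) and Psmb4 by 0.44 (adjusted p = 0.00168), and Psmb4 turned to -0.30 without loess. The Psmb11 difference was 0.27 without loess and 0.37 with 1 loess curve, and neither passed. Psmd2, a scaffold of the base, differed by 0.30 (adjusted p = 0.0332) between kidney log2 ratios of 0.17, 0.35, 0.33, -0.04, 0.38 and -0.09 and brain log2 ratios of 0.01, -0.03, -0.14, -0.20, -0.08 and -0.25. Neither tissue passed for Psmd2 by itself, and the difference ended without kidney array 2, 3 or 5 or brain array 4 or 6 (0.26 to 0.28).

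Between kidney and liver, Psmd13, Psmb4, Psmd8, Psmb11, Psmd12, Psme3 and Psmc3ip were higher in kidney and Psmb9 was lower. Psmb4 differed by 0.58 (adjusted p = 0.000102), which became -0.27 without loess. Psmd8 differed by 0.52 (adjusted p = 0.0195) from liver log2 ratios of 0.12, 0.23, -0.14, -0.17, -0.06 and -0.19, and the call ended without kidney array 6 (0.44). Psmb11 differed by 0.50 (adjusted p = 0.00757), but by 0.39 without loess and 0.41 with 1 loess curve, where it did not pass. Psmc3ip differed by 0.31 (adjusted p = 0.0279) from liver log2 ratios of -0.16, 0.08, 0.03, -0.09, -0.38 and -0.13, and the call ended without kidney array 4 or 5 or liver array 1 or 5 (0.26 to 0.30).

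Genes that work with the proteasome were read from further lists. Of 20 partners measured, among them shuttle factors, assembly factors and regulators, 0 passed in brain in limma (2 higher and 2 lower at an unadjusted p under 0.05), 5 were higher and 1 lower in kidney, and 1 was higher and 3 lower in liver. In kidney Ufd1 (0.47 ± 0.30) and Nsfl1c (0.45 ± 0.27), cofactors of the unfoldase Vcp, had the highest ratios, and Ufd1 turned to -0.38 without loess. Nfe2l1, the transcription factor that induces proteasome genes, was also higher in kidney (0.34 ± 0.20), and is named after its value was seen. The Nfe2l1 mean was 0.28 with 1 loess curve and 0.43 with unrestored intensities, and neither passed. Sem1, a small lid subunit outside the symbol rule, was lower in kidney (-0.20 ± 0.16), and its call ended without array 3, 4, 5 or 6.

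In liver the partner Vcp, which extracts ubiquitinated proteins for degradation, was lower (-0.29 ± 0.13), as was the shuttle factor Rad23b (-0.26 ± 0.17), whose call ended without array 1, 4, 5 or 6, and the nuclear import factor Akirin2 (-0.26 ± 0.15), whose call ended without array 4 or 6. Without loess these means were -0.17, -0.22 and -0.17, and none passed. In kidney Rad23b was higher (0.22 ± 0.23), a call that ended without array 2, 3, 5 or 6. Pomp, the maturation factor of the core, was higher in liver (0.26 ± 0.20). The Pomp call ended without array 2, 3, 4, 5 or 6, and the Pomp mean was -0.07 without loess.

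Of 12 genes of ubiquitin and its activation, 1 was higher and 2 lower in brain, 2 higher and 2 lower in kidney, and 1 higher and 1 lower in liver. Rbx1, the ring subunit of cullin ligases, was higher in brain (0.44 ± 0.31), a call that ended without array 5 or 6. Skp1, an adaptor of such ligases, was lower in brain (-0.33 ± 0.20), where the call ended without array 2, 4 or 5, and in kidney (-0.31 ± 0.06, against 0.04 without loess). The activating enzyme Uba6 was higher in kidney (0.50 ± 0.26) but stood at -0.35 without loess. In liver Uba6 was higher at 0.23 ± 0.17, a call that ended without array 1, 2, 3, 5 or 6. The cullin Cul1 was higher in kidney (0.20 ± 0.10), a call that ended without array 1, 4, 5 or 6 and stood at 0.04 without loess. The conjugating enzyme Ube2g1 was lower in brain (-0.24 ± 0.14), a call that ended without array 1, 2, 4, 5 or 6, and in kidney (-0.29 ± 0.28), where it ended without array 2 or 3 and stood at 0.11 without loess. Another conjugating enzyme, Ube2k, was lower in liver (-0.26 ± 0.10, but -0.18 and not past the threshold without loess).

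Downstream of the proteasome, 11 genes of class I peptide loading were measured. Of these, 1 was higher in brain, 2 were higher and 2 lower in kidney, and 1 was higher and 5 lower in liver. Of all features, 7.3% were higher in brain, 19% higher and 18.9% lower in kidney, and 10.8% higher and 12% lower in liver. In liver the class I heavy chain H2-K1 (-0.64 ± 0.30) and the chaperone Calr (-0.47 ± 0.13) had the lowest ratios, and the light chain B2m was higher (0.44 ± 0.33). In kidney Tap2 and the heavy chain H2-D1 (0.32 ± 0.12, and 1.26 without loess) were higher. B2m was lower there (-0.21 ± 0.14), a call that ended without array 2, 5 or 6 and stood at 0.56 without loess, and the trimming peptidase Erap1 was lower (-0.20 ± 0.16), a call that ended without array 1, 2, 4 or 6. The folding enzyme Pdia3 was higher in brain (0.27 ± 0.10), a call that ended without array 3, 4, 5 or 6.

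Of the interferon-induced genes, Isg15 (-0.56 ± 0.30) and Ifit1 (-0.48 ± 0.13) had the lowest ratios in kidney, and Irf7 (0.40 ± 0.16) and Mx2 (0.39 ± 0.09) the highest. Without loess the kidney means of Irf7 and Mx2 were 0.01 and 0.06, and neither passed. Usp18 was higher in brain (0.55 ± 0.23) and liver (0.35 ± 0.17). In kidney Usp18 was lower at -0.17 ± 0.07, a call that ended without array 1, 2, 4, 5 or 6 and became 0.63 without loess. Gbp2 was also higher in brain (0.38 ± 0.37), a call that ended without array 2, 4, 5 or 6 and stood at -0.03 without loess, and Igtp in liver (0.21 ± 0.14), a call that ended without array 1, 3, 4, 5 or 6 and stood at 0.11 without loess. In liver Ifit2 (-0.42 ± 0.19, but -0.23 and not past the threshold with 1 loess curve) and Gbp3 (-0.28 ± 0.18) were lower, and the Gbp3 call ended without array 4 or 6.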

How the data were processed

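RNA pools of DBA/2J and C57BL/6J were compared on 18 arrays, 6 for each of brain, kidney and liver. Per the labels, the authors extracted spot values with Spot and normalised them by print-tip lowess in limma. The deposited log2 ratios differ from that description: 100% of them were the log2 of a ratio of whole numbers (tolerance 1e-12), with array medians from -1.65 to 0.16. They were therefore treated as ratios of raw intensities, a departure from the planned use of ratios already normalised. Spots at 0 on every array (1275 of 23040) were left out.

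Spot intensities were restored from the whole-number ratios, with a simulated error of 0.31 to 0.317 (root mean square, log2). Print-tip loess (span 0.3, 4 iterations, 48 blocks of 480 spots) was then fitted here. Spots of the same symbol were averaged, which gave 20218 features. Symbols came from the platform annotation, where 16642 spots had 1 symbol, 134 had several and 4989 had none. Means of 6 arrays were tested against 0 with limma 3.58.1 in R 4.3.3, and tissue differences in 1 fit of all 18 arrays, with p-values adjusted over every feature by Benjamini-Hochberg and called under 0.05. On data simulated with known answers, 85.1%, 85.1% and 86.6% of changes of 0.6 were recovered in brain, kidney and liver, each among 20218 features. Fewer features were changed in the simulation than passed on the real arrays, so the recoveries apply to the simulated setting. The number of arrays limits the precision.

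The members and gene lists were chosen with earlier results of these data known. Array values are given for each member called in a tissue at a mean of at least 0.3, for Psmb8, Psmb9 and Psmb10, and for members differing between tissues. Of other lists the 2 highest and 2 lowest called genes of a tissue were named, with some further called genes. Tested alternatives were no loess, 1 loess curve per array, unrestored intensities, only features above the median intensity, the brightest spot per gene, each spot by itself, all 18 arrays in 1 fit, the 12 arrays of the tissues compared, the replicate number as a block, and leaving out each array. Promoter sequences are from RefSeq (GRCm38.p6).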

Additional observations from a re-analysis of the deposited data

Results flagged for a closer look

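In 5 of 36 combinations of gene and tissue checked, a single array stood apart from the other 5 by Dixon's criterion, which flags about 5% of groups by chance. These were Psmb10 in brain (array 5 at 0.36), Psmb9 in kidney (array 5 at 0.14), Psmd1 in liver (array 5 at -0.024), Psmd7 in brain (array 1 at -0.055) and Psmd8 in kidney (array 3 at -0.32), all as log2 ratios.

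The strain ratio differed between tissues, by the limma contrast at an adjusted p under 0.05, for 18 members. Kidney minus brain gave -0.29 for Psma4, 0.50 for Psmb11, 0.44 for Psmb4, -0.42 for Psmb7, -0.39 for Psmb9, 0.30 for Psmd2, -0.48 for Psmd7, -0.31 for Psme2b, -0.45 for Psmg3 and -0.50 for Psmg4. Kidney minus liver gave 0.50 for Psmb11, 0.58 for Psmb4, -0.66 for Psmb9, 0.31 for Psmc3ip, 0.36 for Psmd12, 0.59 for Psmd13, 0.52 for Psmd8 and 0.34 for Psme3. Liver minus brain gave -0.32 for Psmd1, -0.39 for Psmd10, -0.53 for Psmd12, -0.60 for Psmd13, -0.37 for Psme3, -0.33 for Psmg2 and -0.41 for Psmg4. The largest of these, Psmb9 in kidney against liver, joined 5 of 6 kidney arrays below 0 with 5 of 6 liver arrays above 0.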

How the results depend on the processing

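Of the 28 calls within tissues, 7 held with any single array left out and in every setting that included them. These were Psmd12, Psmg4 and Psme4 in brain, Psmb9 in kidney, and Psma1, Psmd13 and Psme4 in liver. Among these, Psmb9 was not one of the 41 members tested above the median intensity. Leaving out at least 1 array ended 16 of the 28 calls, and omitting loess turned the direction of 4. The cause of these changes was not tested.

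Without loess, the members past the threshold numbered 41 in kidney, and 19, 2 and 34 for kidney minus brain, liver minus brain and kidney minus liver. With 1 loess curve per array the same counts were 5, 3, 2 and 2. With unrestored intensities, 6 passed for kidney minus brain and 2 for liver minus brain. Among features above the median intensity, where 41 members were tested, 5 passed in brain and 8 in kidney. The 12 arrays of the tissues compared gave 4 for liver minus brain. Dropping an array gave 3 to 8 members in brain (5 or fewer without array 2, 3, 4, 5 or 6), 7 to 16 in kidney (7 without array 1) and 4 to 12 in liver (12 without array 2, 4 without array 3 or 6). It gave 7 to 11 for kidney minus brain, 3 to 9 for liver minus brain (4 or fewer without brain array 3, 4 or 6 or liver array 1, 3, 4 or 6) and 5 to 11 for kidney minus liver (5 without liver array 1).

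Signs reversed without loess for Psmg2 in brain (-0.0065), for Psmb4 (-0.49), Psma4 (0.44) and Psme1 (-0.073) in kidney, for Psmb4 (-0.30), Psma4 (0.38) and Psmb7 (0.21) in kidney minus brain, and for Psmb4 in kidney minus liver (-0.27). With unrestored intensities they reversed for Psmb4 in kidney (-0.075) and for Psmb4 (-0.013) and Psmd7 (0.016) in kidney minus brain.

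With the replicate number as a block, 10, 4 and 8 members passed for kidney minus brain, liver minus brain and kidney minus liver. The deviations of arrays of the same number had r from -0.23 to 0.16, and 3, 1 and 3 of 6 arrays correlated best with their own number. The numbers were not taken as pairs in the main fit. Whether arrays of the same number share a deviation was not tested.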
